A study of Homo sapiens with 12 samples.

Results

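The genes of transforming growth factor beta (TGF-beta) and bone morphogenetic protein (BMP) signalling were examined in 4 stable derivatives of the human lung adenocarcinoma line A549. They were taken from the deposited table of gene counts, which held all 48 listed genes among its 60623 genes, by a list of symbols that sets no threshold on a measured value. The list was chosen with earlier results of these data known. The 48 members comprise 11 ligands, 6 extracellular antagonists or binders, 12 receptors or co-receptors, 6 signalling SMADs, 2 inhibitory SMADs, 6 intracellular regulators and 5 target genes.

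RNA-seq of the lines was made to ask how phosphorylation of the aryl hydrocarbon receptor (AHR), a ligand-activated transcription factor, at the serine altered in S489A and S489D by the kinase PLK1 bears on gene expression. V cells were A549 cells infected with lentivirus carrying only the vector pLV-EF1a-IRES-Hygro, and WT cells were infected with lentivirus for HA-tagged wild-type AHR. SA cells carried HA-AHR with S489A, which cannot be phosphorylated at this serine, and SD cells carried HA-AHR with S489D, a mimic of the phosphorylated form. All lines, the vector control included, were selected in hygromycin at 200 ug/ml for 72 h. Each line gave 3 libraries that the labels name biological replicates, 12 libraries in all, prepared from total RNA by poly(A) enrichment. There is 1 line for each construct, so a construct's effect and other differences among the lines cannot be told apart, and all lines also keep the AHR of A549 itself.

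Ligands of this family are secreted dimers that bring type I and type II serine/threonine kinase receptors together. TGF-beta and activin ligands lead to phosphorylation of SMAD2 and SMAD3, BMP ligands to that of SMAD1, SMAD5 and SMAD9, and both classes join SMAD4 to act on genes in the nucleus. The pathway restrains the growth of lung epithelium and, in carcinoma cells, is known for its part in the epithelial-mesenchymal transition (EMT), while SMAD6, SMAD7 and ubiquitin ligases such as SMURF1 feed back on it.

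Library totals lay between 7844045 and 11765576 expected counts, and a count of 3, the limit that a count of 0 allows, corresponded to 0.256 to 0.381 CPM (a count relative to its library's normalized size). That limit allows for counting error alone. AHR, the introduced gene, measured 65.8 to 74.3 CPM in V, 234 to 285 in WT, 219 to 230 in SA and 202 to 220 in SD. Reads from the introduced and the endogenous AHR were not separated, and AHR in SD was below that in WT by 0.35 on the log2 scale (SE 0.06, adjusted p = 0.0077, edgeR). CDKN2A, which is deleted in A549, had 0 counts in all 12 libraries. The epithelial keratins KRT8, KRT18 and KRT7 were abundant, and CDH1 measured 102.6 to 179.5 CPM. In the same epithelial list KRT19 (0 to 0.536 CPM) and EPCAM (0.381 to 1.75 CPM) were low. Of the 7 markers of alveolar type II cells, from which A549 is often said to derive, only ABCA3 reached a mean of 1 CPM. SFTPC, SFTPB and NKX2-1 were at or near 0. The endothelial and fibroblast lists were near 0 apart from COL1A1, and the leukocyte list apart from CD14. The V libraries correlated best with each other, whereas libraries of the AHR lines correlated about as well across lines as within them.

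Promoter sequences of 5 members are shown first, from RefSeq on GRCh38.p14, as the bases just upstream of the annotated start farthest upstream. Matches of 3 short motifs, searched on both strands, are in capitals: GCGTG, the core of the element bound by AHR, CAGAC, the core of the SMAD binding element, and GGCGCC, a GC-rich SMAD element that reads the same on both strands. The letters of GGCGCC and of GCGTG can share a base. INHBB and TGFBR2 are shown because they changed in every AHR line against V, TGFB2 because it was the member that changed between SD and WT, and BMPR2 because it rose in SD. ID1 was picked as the most abundant member per length and because its stretch holds 2 matches to the AHR core. The stretches shown are therefore not a fair sample of motif content. SMAD6, whose fall in WT held under every alternative, is not shown, and its stretch had no match to the 3 motifs. All 5 lie on the plus strand: INHBB at chr2:120345886-120346135, TGFBR2 at chr3:30606106-30606355, TGFB2 at chr1:218345086-218345335, BMPR2 at chr2:202376077-202376326 and ID1 at chr20:31605039-31605282.
INHBB: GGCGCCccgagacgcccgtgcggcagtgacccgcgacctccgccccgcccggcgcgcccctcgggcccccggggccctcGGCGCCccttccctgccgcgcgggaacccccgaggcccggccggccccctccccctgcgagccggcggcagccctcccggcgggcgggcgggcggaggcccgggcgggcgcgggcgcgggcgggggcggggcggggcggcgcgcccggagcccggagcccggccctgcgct
TGFBR2: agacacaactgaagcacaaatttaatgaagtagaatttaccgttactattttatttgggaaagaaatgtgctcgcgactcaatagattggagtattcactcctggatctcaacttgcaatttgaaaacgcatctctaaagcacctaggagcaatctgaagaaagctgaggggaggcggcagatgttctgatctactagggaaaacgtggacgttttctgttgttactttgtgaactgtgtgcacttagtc
TGFB2: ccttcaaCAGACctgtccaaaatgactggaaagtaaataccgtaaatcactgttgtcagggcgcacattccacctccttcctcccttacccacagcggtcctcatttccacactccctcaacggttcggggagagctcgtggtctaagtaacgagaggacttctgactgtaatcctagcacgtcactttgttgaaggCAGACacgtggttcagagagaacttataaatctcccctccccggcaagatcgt
BMPR2: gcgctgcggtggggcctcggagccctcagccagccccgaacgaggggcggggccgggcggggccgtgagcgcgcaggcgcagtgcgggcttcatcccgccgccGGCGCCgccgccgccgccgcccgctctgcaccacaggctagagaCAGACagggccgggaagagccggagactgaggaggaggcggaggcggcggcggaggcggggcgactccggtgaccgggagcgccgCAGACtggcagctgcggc
ID1: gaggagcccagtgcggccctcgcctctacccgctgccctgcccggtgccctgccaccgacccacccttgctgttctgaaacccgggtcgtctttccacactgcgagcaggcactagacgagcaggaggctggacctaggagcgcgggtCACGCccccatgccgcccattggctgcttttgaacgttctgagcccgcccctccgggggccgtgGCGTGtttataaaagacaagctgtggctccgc

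In these stretches INHBB had 2 matches to GGCGCC, TGFB2 had 2 to CAGAC, BMPR2 had 2 to CAGAC and 1 to GGCGCC, and ID1 had 2 to GCGTG. The TGFBR2 stretch had no match to any of the 3 motifs, while a second RefSeq window of TGFBR2, chr3:30606351-30606650, which holds the deposited gene start, had 1 match to GCGTG. Over windows of 300 bases (250 before and 50 after each start), 43 of the 48 members had an entry, with 80 windows. GCGTG was in 47.5% of the 80 windows and in 36.5% of all 35116 promoter windows, CAGAC in 48.8% against 45.3%, and GGCGCC in 26.2% against 19.2%. These matches describe letters in the windows and were not tested as binding sites.

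Levels were compared between genes as TPM, the length-scaled share of a library's transcripts, calculated here from the counts and the length of each gene's merged exons. The most abundant members were ID1, TGFBI, ID3 and TGFB1. ID1, an inhibitor of basic helix-loop-helix factors and a direct BMP target, had a mean of 699.9 TPM over the 12 libraries (range 620 to 759). TGFBI, an extracellular matrix protein named for its induction by TGF-beta, had 408 TPM (394 to 442) and ID3 had 342 TPM (302 to 371), so these ranges did not touch that of ID1. TGFB1 was the most abundant ligand at 235 TPM (206 to 258), above TGFB2 at 81.3 TPM (71.5 to 96.6) and INHBB, the activin B subunit, at 60.8 TPM (40.9 to 81.9). The ranges of TGFB2 and INHBB overlapped. Among the receptors TGFBR2, the type II receptor of TGF-beta, led with 106 TPM (83.6 to 117), and its partner TGFBR1 had 19.2 TPM (16.3 to 21.8).

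SMAD3 was the most abundant SMAD at 184 TPM (165 to 205), above inhibitory SMAD6 at 68.5 TPM (59.7 to 80.5), SMAD5 at 29.8 TPM, SMAD2 at 12.96 TPM and SMAD4, the shared partner, at 10.3 TPM. The low TPM of SMAD2 and SMAD4 depends on merged exon lengths of 36426 and 19606 bases, against 9040 for SMAD5. Without length scaling SMAD2 lay above SMAD5, at 121 to 146 CPM against 72.9 to 90.05 CPM, so their order is uncertain. The BMP ligands were low, with BMP4 at 14.7 TPM and BMP2, BMP6 and BMP7 between 1.31 and 2.29 TPM. BMP8B had 13.3 TPM, a value that is uncertain because its sequence is close to that of BMP8A. Of the extracellular antagonists, FSTL3, which binds activins, stood at 116 TPM, and FSTL1 at 21.9 TPM. The BMP antagonists NOG, CHRD and GREM1 were each below 1 TPM on average.

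**Figure D1:**
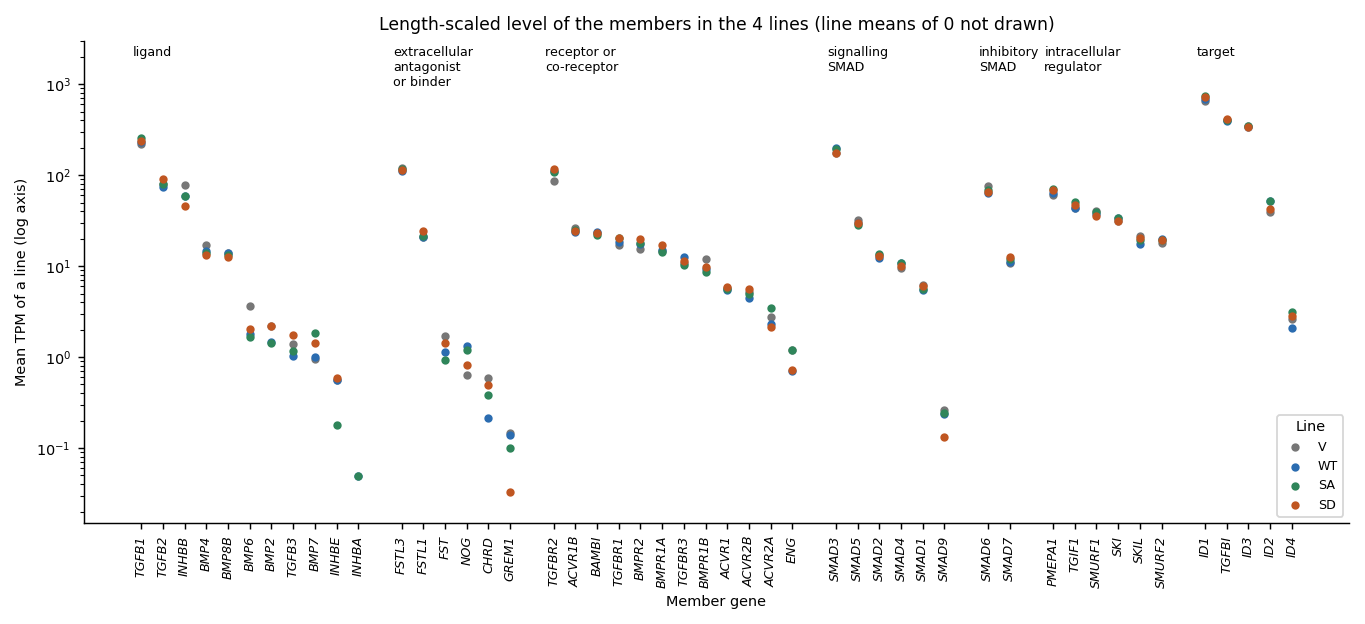
Mean TPM of each of the 48 members in V, WT, SA and SD (3 libraries each, 1 point per line, log vertical axis), grouped by role and ordered by level. ID1, TGFBI and ID3 lie highest, and the 4 lines differ little beside the spread between genes. INHBA had no count in V and SD, so only its WT and SA points are drawn.

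In all, 43 members had counts high enough to be tested in at least 1 of the 6 pairs of lines. INHBA (the activin A subunit), INHBE, GREM1, NOG and SMAD9 passed the filter on low counts in none, with 0 to 11 counts per library, and INHBA had 0 counts in 9 of 12 libraries. FST, CHRD and ENG, with 1 to 19 counts per library, were tested in 5, 1 and 3 pairs. Over the 6 pairs 14 members were called in 21 cases at an adjusted p under 0.05 in edgeR's quasi-likelihood test, with adjustment over all genes tested. The 29 other tested members were never called. In all 21 cases the 3 libraries of a line lay entirely to one side of the 3 of the other line, for which an exact two-sided permutation test of the single value gives 0.1, the smallest p that 3 against 3 libraries allow. The cases were selected on these same values, so this separation adds no support to the calls. Its share over all genes was not counted. The p-values measure the spread between these libraries, and fewer cells expressing a gene cannot be told apart from less RNA per cell.

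**Figure D2:**
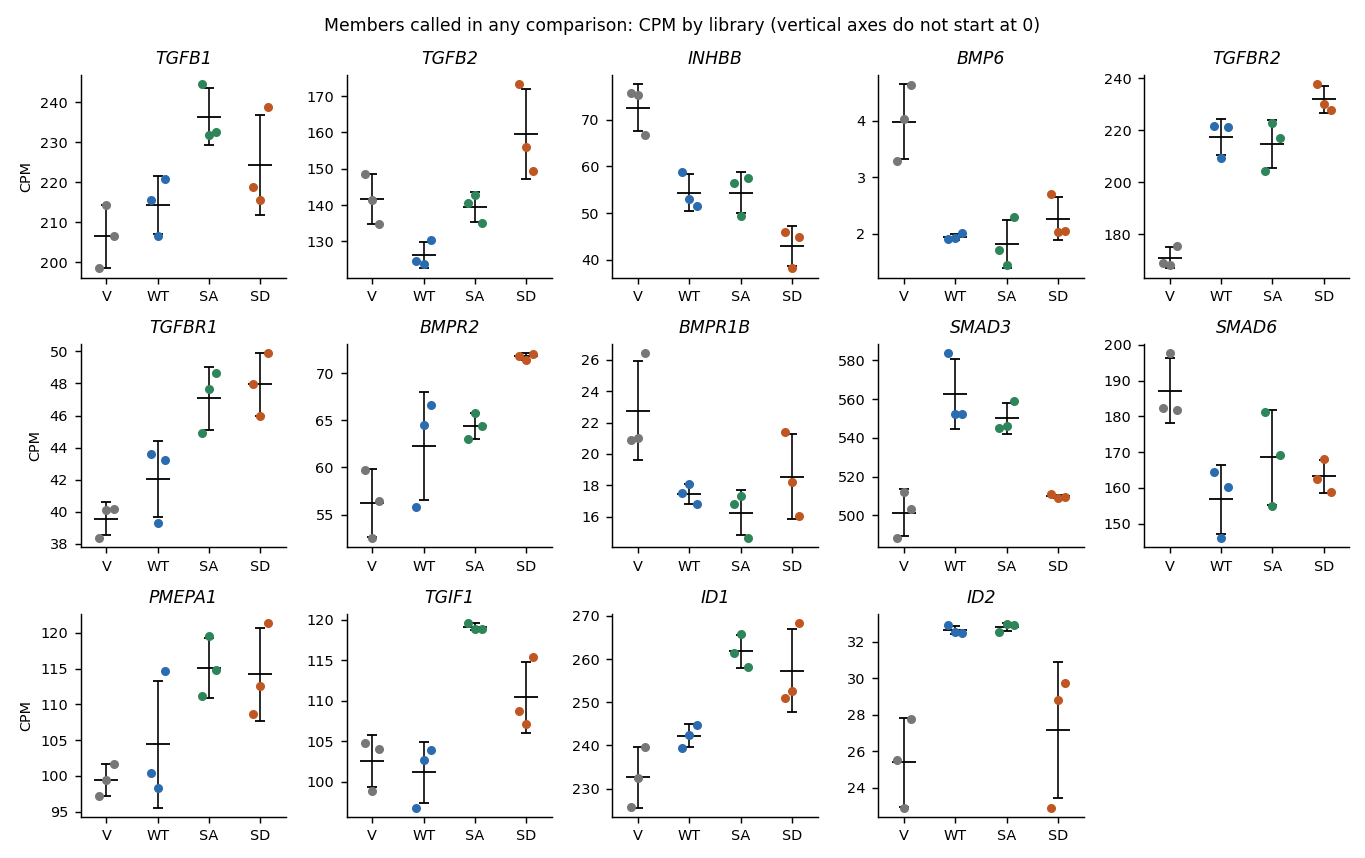
CPM of the 14 members called in any comparison, with 1 point per library, the line mean as a bar and the SD of 3 libraries as whiskers, for V, WT, SA and SD. INHBB lies lower and TGFBR2 higher in all 9 AHR libraries than in any V library. TGFB2 is highest in SD and lowest in WT.

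Compared with WT cells, SD cells had more TGFB2 RNA, which encodes a TGF-beta ligand, and no other member was called. TGFB2 measured 173, 156 and 149 CPM in the SD libraries and 125, 124 and 130.5 CPM in WT, against 141, 143 and 135 CPM in SA and 149, 142 and 135 CPM in V. Every SD library was above every library of the other lines, and the WT libraries were the lowest of all. The rise in SD over WT was 1.26-fold (log2 fold change 0.34, SE 0.06, 95% interval 0.22 to 0.46, adjusted p = 0.0063). This was 1 of 41 members tested, or 2.44%, beside 0.708% of all 14828 genes tested. Without WT replicate 1 the call was lost (adjusted p = 0.0589). TGFB2 shares 1371 bases of exon with TGFB2-OT1 on the same strand, whose mean was 12.4 counts against 1424 for TGFB2. Against SA the SD level of TGFB2 was 0.20 higher on the log2 scale (SE 0.06, adjusted p = 0.351), against V 0.17 higher (adjusted p = 0.114), and WT against V was -0.17 (adjusted p = 0.0668), none of which passed. TGFB2 was called in SD against V without SD replicate 3 and in WT against V without V replicate 3.

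Of the 41 members, 30 had a log2 fold change above 0 in SD against WT and 11 below it, with a median of 0.09 beside a median of -0.00081 over all genes. At an unadjusted p under 0.05 there were 11 members, but the share of all genes at that limit was not calculated for comparison. INHBB came nearest to a call after TGFB2, with -0.33 (SE 0.09, 95% interval -0.50 to -0.16, adjusted p = 0.0716) and all SD libraries below all WT libraries. It was called when every gene with at least 1 count was tested and with the replicate number as a block. The type II receptor BMPR2 had 0.20 (adjusted p = 0.272), the type I receptor TGFBR1 0.20 (adjusted p = 0.358) and ACVR2B, a type II activin receptor, 0.36 (adjusted p = 0.157), each with SD libraries above WT libraries. ID2 had -0.26 (adjusted p = 0.317) and SMAD3 -0.14 (adjusted p = 0.264), each with SD libraries below WT libraries. These members did not pass the test, and their intervals leave out 0 only before adjustment over all genes.

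Between SD and SA cells 0 of 42 members were called by edgeR's quasi-likelihood test, beside 0.22% of all 15030 genes tested. DESeq2 also called 0, and 8 members had an unadjusted p under 0.05 in edgeR, a limit at which the share of all genes was not calculated. INHBB had the smallest p of the 42, with -0.33 in SD against SA (SE 0.09, 95% interval -0.50 to -0.17, adjusted p = 0.156). It passed when every gene with at least 1 count was tested and when the replicate number was a block. BMPR1A, a type I BMP receptor, had 0.25 (adjusted p = 0.399), and ID2 had -0.27 (adjusted p = 0.428). The changes lay on both sides of 0, with 22 members above and 20 below it and a median of 0.01, beside 0.00064 over all genes.

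Between WT and SA cells 0 of 41 members were called by the same test, beside 0.0803% of all 14942 genes. At an unadjusted p under 0.05 there were 9 members, again without a share of all genes to set beside them. DESeq2 called 1 member, TGIF1, a nuclear corepressor of SMAD2 and SMAD3. TGIF1 measured 96.8, 103 and 104 CPM in WT and 119.6, 118.9 and 118.9 CPM in SA, so WT lay below SA by -0.24 on the log2 scale (SE 0.06, adjusted p = 0.177 by edgeR). Here 13 members were above 0 and 28 below it, with a median of -0.05 beside -0.0015 over all genes. TGFB1 (-0.14, adjusted p = 0.502), TGFB2 (-0.14, adjusted p = 0.600) and TGFBR1 (-0.17, adjusted p = 0.675) were among those with all WT libraries below all SA libraries, and none passed.

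**Figure D3:**
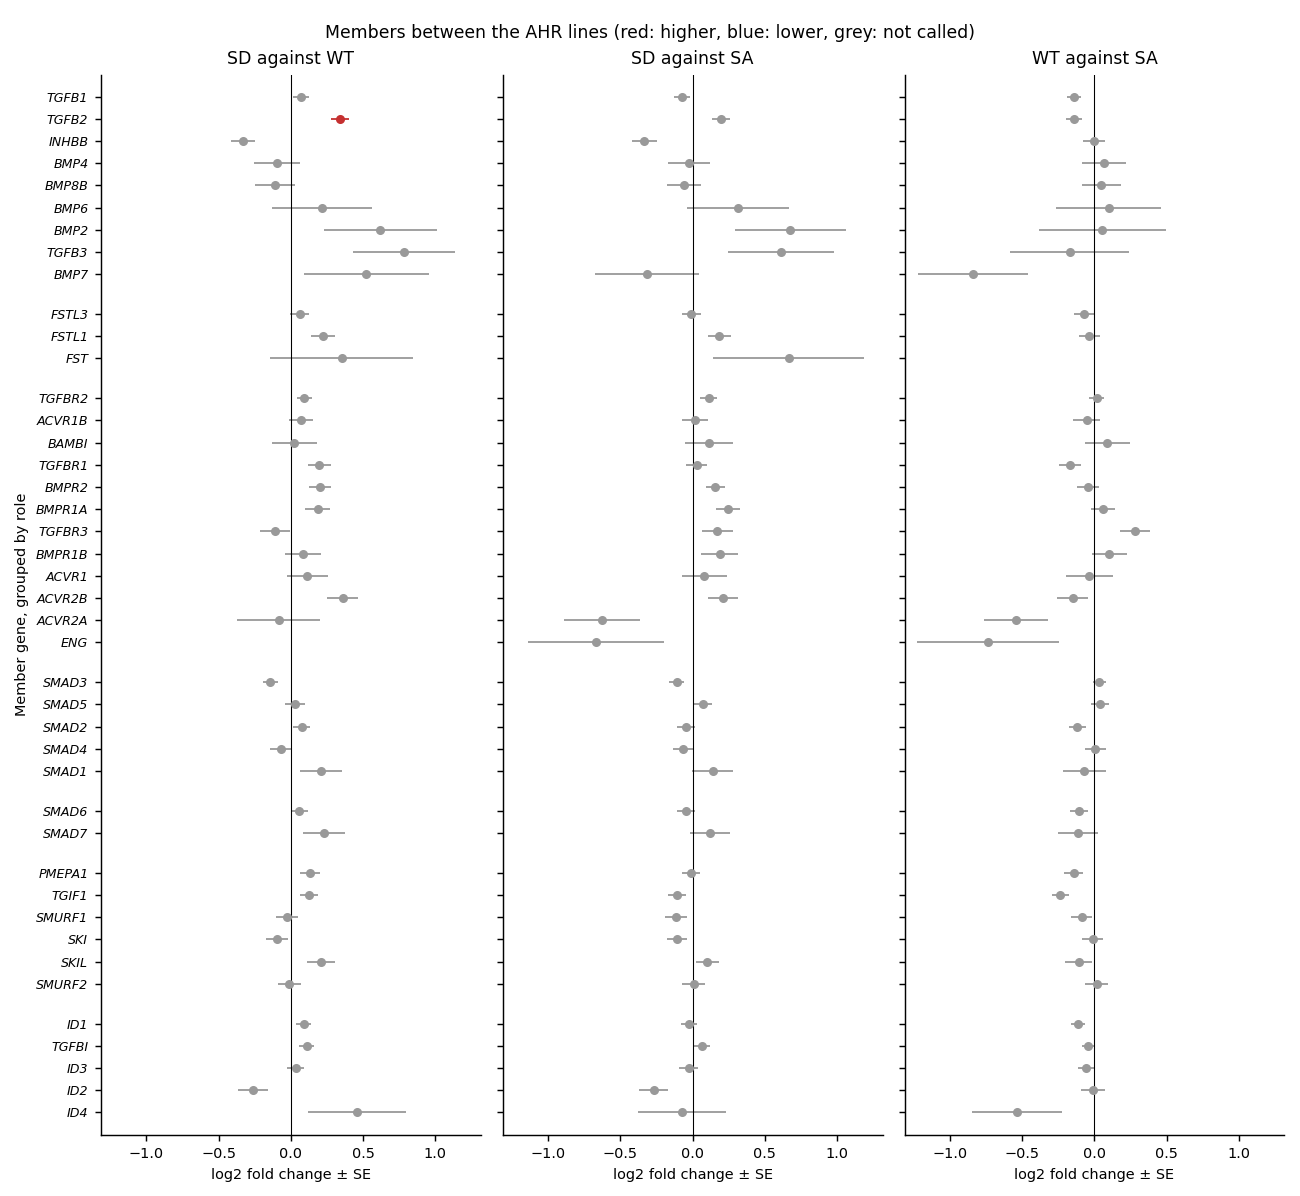
Log2 fold change with its standard error of each tested member in SD against WT, SD against SA and WT against SA, grouped by role. Red marks a member called higher at an adjusted p under 0.05, which is TGFB2 in SD against WT, and grey marks members that were not called. The widest error bars belong to low-count members such as BMP7, BMP2, TGFB3 and FST.

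Against the vector line more members changed, and INHBB and TGFBR2 did so in all 3 AHR lines. The 3 comparisons share the V libraries and are therefore not independent of each other. In WT cells TGFBR2, SMAD3 and ID2 rose and INHBB and SMAD6 fell, 5 of 41 members (12.2%) beside 5.24% of all 14772 genes tested. The 3 rises made 7.32% of the members beside 2.31% of all genes, and the 2 falls 4.88% beside 2.93%. In SA cells 10 of 42 members (23.8%) were called beside 7.17% of 14913 genes, with TGFBR2, TGFBR1, TGFB1, TGIF1, PMEPA1, ID1 and ID2 higher and INHBB, BMPR1B and BMP6 lower. The 7 rises were 16.7% of the members beside 3.88% of all genes, and the 3 falls 7.14% beside 3.29%. In SD cells TGFBR2, TGFBR1 and BMPR2 rose and INHBB and SMAD6 fell, 5 of 42 members (11.9%) beside 5.41% of 14890 genes. The 3 rises were 7.14% beside 2.92% of all genes, and the 2 falls 4.76% beside 2.49%. The members' median log2 fold change came to -0.06 for WT, -0.03 for SA and 0.03 for SD, beside 0.0018, -0.0024 and 0.0029 over all genes. Whether the members as a list differed from other genes was not tested, and the list was chosen with earlier results of these data known.

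**Figure D4:**
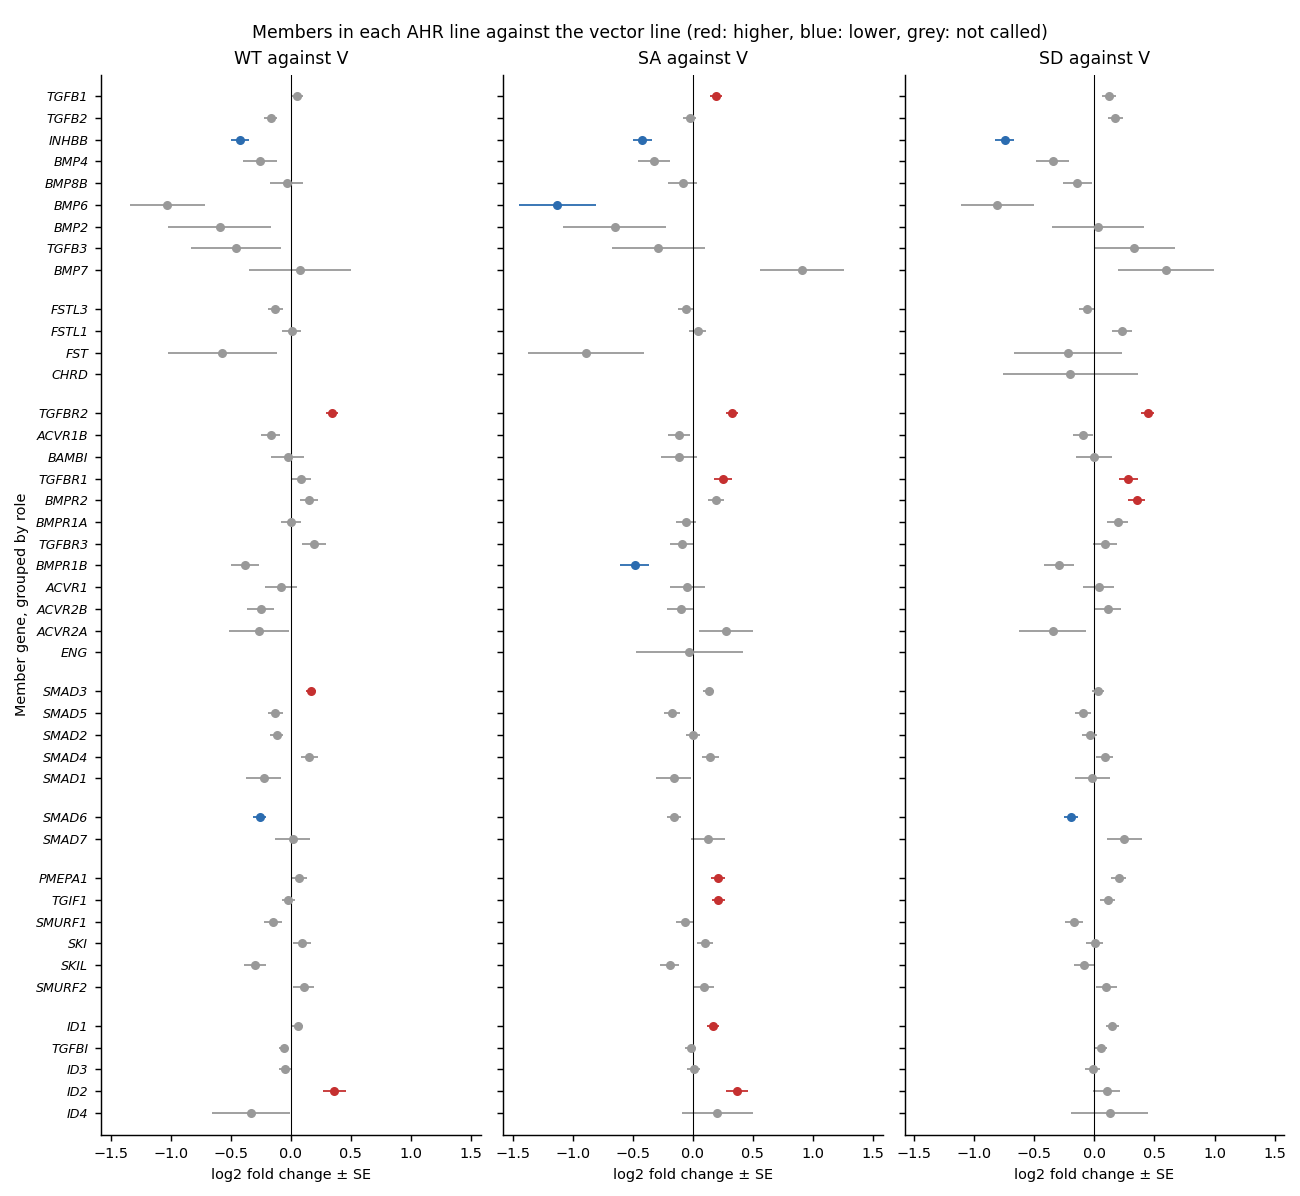
Log2 fold change with its standard error of each tested member in WT, SA and SD against V, grouped by role. Red marks members called higher and blue members called lower at an adjusted p under 0.05, and grey marks those not called. TGFBR2 is red and INHBB blue in all 3 panels, and 7 members are red in SA against V.

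Among the ligands, INHBB fell in every AHR line and fell most in SD. Its libraries measured 75.7, 75.3 and 66.7 CPM in V, 58.8, 52.9 and 51.4 CPM in WT, 56.4, 49.4 and 57.4 CPM in SA and 46.0, 38.2 and 44.9 CPM in SD. The 9 AHR libraries all lay below the 3 V libraries, WT and SA overlapped, and all SD libraries lay below both. Against V the log2 fold change came to -0.42 in WT (SE 0.07, adjusted p = 0.000385), -0.42 in SA (SE 0.08, adjusted p = 0.000546) and -0.75 in SD (SE 0.08, 95% interval -0.91 to -0.59, adjusted p = 5.2e-07). In SD the level fell by 40.5% against V, and the differences of SD from WT and SA passed only under the alternatives named above. These 3 calls held under every alternative and with each library left out.

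TGFB1, the ligand most studied in EMT, rose in SA and BMP6 fell there. TGFB1 measured 198, 214 and 207 CPM in V, 215.5, 206.5 and 221 CPM in WT, 245, 232 and 232.5 CPM in SA and 219, 216 and 239 CPM in SD. Only the SA rise of 0.19 passed (SE 0.05, adjusted p = 0.0167), and it was lost without V replicate 1 (adjusted p = 0.140) or V replicate 3 (adjusted p = 0.0569). TGFB1 shares 215 exonic bases with HNRNPUL1 on the opposite strand, whose own log2 fold change in SA was 0.12 (adjusted p = 0.15). Whether counting used strand was not given in the sources used here, so reads in such shared bases cannot be told apart.

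BMP6, a BMP ligand known for its role in iron sensing, measured 3.29, 4.03 and 4.63 CPM in V, 1.91, 1.93 and 2.00 CPM in WT, 1.70, 1.45 and 2.30 CPM in SA and 2.70, 2.04 and 2.05 CPM in SD. Every AHR library was below every V library. In SA it was -1.13 on the log2 scale (SE 0.32, 95% interval -1.75 to -0.50, adjusted p = 0.029), while WT had -1.03 (adjusted p = 0.0524, called when every gene with at least 1 count was tested) and SD -0.81 (adjusted p = 0.133). The SA call was lost without V replicate 2 (adjusted p = 0.0726), V replicate 3 (0.146), SA replicate 1 (0.0594) or SA replicate 2 (0.119). BMP6 shares 212 exonic bases with the abundant TXNDC5 on the opposite strand, which had 0.03 in SA against V (adjusted p = 0.807).

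Among the receptors, TGFBR2 rose in every AHR line. It measured 169, 168 and 176 CPM in V, 222, 209 and 221 CPM in WT, 204.5, 223 and 217 CPM in SA and 238, 230.0 and 228 CPM in SD. All 9 AHR libraries were above the V libraries, and the SD libraries were above those of WT and SA. The rise over V was 1.27-fold in WT (log2 fold change 0.34, SE 0.05, adjusted p = 1.5e-05), 1.26-fold in SA (0.33, SE 0.05, adjusted p = 9.3e-05) and 1.36-fold in SD (0.44, SE 0.05, adjusted p = 3.5e-06). SD against WT had 0.09 and SD against SA 0.11 on the same scale, neither of which passed. These 3 calls held under every alternative and with each library left out.

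TGFBR1, the type I receptor that phosphorylates SMAD2 and SMAD3, rose in SA and SD. It measured 38.4, 40.1 and 40.2 CPM in V, 43.6, 39.3 and 43.2 CPM in WT, 44.9, 47.7 and 48.7 CPM in SA and 47.9, 46.0 and 49.9 CPM in SD. WT overlapped V, and the SA and SD libraries were all above both. Against V the log2 fold change came to 0.25 in SA (SE 0.08, adjusted p = 0.0439) and 0.28 in SD (SE 0.08, adjusted p = 0.0344). In SA the call was lost without V replicate 1 (adjusted p = 0.169), 2 (0.0760) or 3 (0.0924), without SA replicate 2 (0.123) or 3 (0.172) and in DESeq2 (0.108). In SD it was lost with any of the 6 libraries left out (adjusted p between 0.0567 and 0.154), in DESeq2 (0.0888) and with the replicate block (0.0551).

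Of the BMP receptors, BMPR2 was called higher in SD and BMPR1B lower in SA. BMPR2, a type II receptor, measured 59.7, 52.5 and 56.5 CPM in V, 55.8, 64.5 and 66.6 CPM in WT, 63.0, 65.7 and 64.4 CPM in SA and 71.9, 71.4 and 72.1 CPM in SD. The SD libraries were above all others, and the rise over V was 0.35 (SE 0.07, 95% interval 0.21 to 0.49, adjusted p = 0.00225), which held under every alternative and with each library left out. BMPR1B, a type I receptor, measured 20.9, 21.0 and 26.4 CPM in V, 17.5, 18.1 and 16.8 CPM in WT, 16.8, 17.3 and 14.7 CPM in SA and 21.4, 18.2 and 16.03 CPM in SD. The WT and SA libraries lay below V, and SD overlapped it. BMPR1B fell by 0.48 on the log2 scale in SA (SE 0.12, adjusted p = 0.0112), a call lost without V replicate 3 (adjusted p = 0.122) or SA replicate 3 (0.0787), while WT had -0.38 (adjusted p = 0.0534) and SD -0.30 (adjusted p = 0.206). The 8 other receptors or co-receptors tested, TGFBR3, BMPR1A, ACVR1, ACVR1B, ACVR2A, ACVR2B, ENG and BAMBI, were not called in any pair.

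SMAD3 rose in WT cells. It measured 488, 512 and 503 CPM in V, 584, 552.5 and 552.3 CPM in WT, 545, 546 and 559 CPM in SA and 511, 509 and 509.6 CPM in SD. WT and SA lay above V without overlap, whereas SD lay within the range of V. Against V the log2 fold change came to 0.17 in WT (SE 0.04, adjusted p = 0.0141), 0.13 in SA (adjusted p = 0.0722) and 0.03 in SD. The WT call was lost without V replicate 1 (adjusted p = 0.115), without WT replicate 1 (0.0846) and with the replicate block (0.0621). SMAD3 was called in SA against V with the replicate block, in DESeq2 and without SA replicate 1. SMAD1, SMAD2, SMAD4 and SMAD5 were not called in any pair.

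SMAD6, which inhibits BMP receptor signalling, fell in WT and SD. Its libraries measured 182, 198 and 182 CPM in V, 164, 146 and 160.2 CPM in WT, 181, 155 and 169 CPM in SA and 163, 168 and 159 CPM in SD. All AHR libraries were below the V libraries, SA replicate 1 only just. Against V the log2 fold change came to -0.26 in WT (SE 0.05, adjusted p = 0.00271), -0.15 in SA (adjusted p = 0.118) and -0.20 in SD (SE 0.06, adjusted p = 0.0403). The WT call held under every alternative and with each library left out. SMAD6 was called in SA against V without SA replicate 1. The SD call was lost without V replicate 1 (adjusted p = 0.0907), 2 (0.213) or 3 (0.0678), without SD replicate 2 (0.0864) or 3 (0.113), and in a fit of all 12 libraries (0.0532). SMAD7, the inhibitor of both branches, had 0.02, 0.13 and 0.25 against V in WT, SA and SD and was not called.

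Of the intracellular regulators, TGIF1 and PMEPA1 rose in SA cells. TGIF1 measured 105, 98.9 and 104 CPM in V and 109, 107 and 115 CPM in SD, beside the WT and SA values given above. The SA libraries lay above all others, 0.21 over V (SE 0.06, adjusted p = 0.0175). PMEPA1, a TGF-beta-induced inhibitor of SMAD2 and SMAD3 activation, measured 97.2, 99.4 and 102 CPM in V, 100.4, 98.3 and 115 CPM in WT, 111, 119.5 and 115 CPM in SA and 109, 112 and 121 CPM in SD. WT overlapped V, and all SA and SD libraries lay above V, by 0.21 in SA (SE 0.06, adjusted p = 0.0233) and 0.20 in SD (SE 0.06, adjusted p = 0.0526). The TGIF1 call was lost without V replicate 1 (adjusted p = 0.0546) or 2 (0.0755) or SA replicate 2 (0.0585) or 3 (0.0562), and the PMEPA1 call without V replicate 1 (0.131) or 2 (0.0565) or SA replicate 2 (0.124) or 3 (0.0692). PMEPA1 was called in SD against V without SD replicate 1. SMURF1, SMURF2, SKI and SKIL, which target or repress SMADs, were not called in any pair.

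Of the targets, ID1 rose in SA and ID2 in WT and SA. ID1 measured 226, 232 and 239.7 CPM in V, 239.5, 242 and 245 CPM in WT, 261.5, 266 and 258 CPM in SA and 251, 253 and 268 CPM in SD. SA and SD lay above V without overlap, by 0.17 in SA (SE 0.05, adjusted p = 0.0302) and 0.15 in SD (SE 0.05, adjusted p = 0.120). The SA call of ID1 was lost without V replicate 1 (adjusted p = 0.186) or 2 (0.0711) or SA replicate 2 (0.119) or 3 (0.0713).

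ID2 measured 25.5, 22.9 and 27.8 CPM in V, 32.9, 32.6 and 32.5 CPM in WT, 32.6, 33.0 and 32.9 CPM in SA and 22.9, 28.8 and 29.7 CPM in SD. WT and SA lay close together above V, and SD overlapped V and lay below both. Against V the log2 fold change came to 0.36 in WT (SE 0.09, adjusted p = 0.0201), 0.37 in SA (SE 0.09, adjusted p = 0.0123) and 0.10 in SD. The WT call was lost without V replicate 1 (adjusted p = 0.0792) or 2 (0.110) or WT replicate 1 (0.0587) or 3 (0.0652) and in DESeq2 (0.0557), and the SA call without V replicate 2 (0.0760). ID2 shares exon with ID2-AS1 on the opposite strand, whose log2 fold change was -0.42 in WT (adjusted p = 0.213) and -0.46 in SA (adjusted p = 0.147). ID3, ID4 and TGFBI were not called in any pair, and TGFBI lay within 0.11 of 0 on the log2 scale in all 6.

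The 29 members tested and never called had log2 fold changes between -0.89 (FST, the activin-binding follistatin, SA against V) and 0.91 (BMP7, SA against V), both low genes, with BMP7 at 0.76 to 3.60 CPM. Beside the members named above, they include the ligands TGFB3, BMP2, BMP4 and BMP8B, and the extracellular FST, FSTL1, FSTL3 and CHRD. BMP7 in SA against V had an SE of 0.35 and an adjusted p of 0.122. In the 3 comparisons with V the smallest adjusted p among these members was 0.0619 in WT, for SKIL, a corepressor of SMADs (-0.30, SE 0.09, called when every gene with at least 1 count was tested and without WT replicate 2 or V replicate 2), and 0.122 in SA and 0.115 in SD, the last for FSTL1. FSTL1 was called in SD against V without SD replicate 2. For abundant members the intervals were narrow. SMAD2, for example, had 0.0011 in SA against V, and SMAD4 0.15 in WT against V with an interval of 0.01 to 0.29 (adjusted p = 0.254).

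Epithelial genes also differed between V and the AHR lines. The summed level of the 6 epithelial markers was 7621 to 8017 CPM in V, 6419 to 6517 in WT, 6218 to 6376 in SA and 5767 to 6064 in SD, with 2 of the 6 (EPCAM and KRT19) below 2 CPM in every library. KRT8, KRT18 and CDH1 were lower in all AHR lines against V, CDH1 by 0.60 on the log2 scale in WT and in SA and by 0.43 in SD. KRT7 was lower in SD against WT (-0.23, adjusted p = 0.0309) and in SD against V (-0.24, adjusted p = 0.00412). In SD against WT, CDH1 went the other way, with 130, 132 and 117 CPM in SD and 116, 112 and 108 CPM in WT. KRT8 and KRT18 had lower means in SD (2440 and 1962 CPM) than in WT (2604 and 2123 CPM). CDH1, KRT8 and KRT18 were not called in that pair. CD14, of the leukocyte list, was higher in SD against V (0.60, adjusted p = 0.00946), while CD3E had 0 counts in all libraries. The fibroblast list summed to 10.3 to 13.9 CPM in V and 5.97 to 10.3 CPM in the AHR lines, with COL1A2 and DCN at 0 counts. The part of these differences in the changes of the members was not tested.

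Beyond the members, 104 further pathway genes were taken from lists. These lists were chosen with earlier results of these data known, so the shares called below are descriptive and add no support. In each pair 69 or 70 of the genes could be tested. None was called by edgeR in SD against WT, SD against SA or WT against SA, beside 0.708%, 0.22% and 0.0803% of all genes. Against V, 13 were called in WT (5 higher, 8 lower), 12 in SA (7 higher, 5 lower) and 12 in SD (8 higher, 4 lower), which is 18.8%, 17.4% and 17.1% of those tested, beside 5.24%, 7.17% and 5.41% of all genes. Among 6 further ligands tested, GDF15, a stress-responsive member of the family, fell in WT (log2 fold change -0.60), SA (-0.55) and SD (-0.61), from 95.8 to 101 CPM in V to 61.0 to 71.4 CPM in the AHR libraries. AMH, anti-Mullerian hormone, was called lower in WT only (-0.27, adjusted p = 0.0496). Of 8 further receptors and co-receptors, NRP2 fell in WT (-0.36) and SA (-0.21), and NRP1 rose in WT (0.19) and SD (0.28). Of the extracellular modulators, NBL1 rose in SA (0.29, adjusted p = 0.0324) and CHRDL2 in SD (2.63, SE 0.68, adjusted p = 0.0179), both known as BMP antagonists. CHRDL2 was low throughout, with 0 to 3 counts per V library and 10 to 13 per SD library.

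Of 23 further intracellular regulators, HIPK2, a kinase that binds SMAD corepressors, rose in WT (0.38), SA (0.43) and SD (0.29), and NEDD4L, a ubiquitin ligase for activated SMAD2 and SMAD3, fell in WT (-0.26), SA (-0.39) and SD (-0.29). Of 18 further TGF-beta response genes tested, 6 were called in each comparison with V, in both directions. LTBP2, a matrix protein, rose in WT (0.44), SA (0.52) and SD (0.62), and CCN2, a matricellular protein, rose in WT (0.60), SA (0.63) and SD (0.84). NEDD9, a scaffold protein of focal adhesions, fell in WT (-0.50), SA (-0.61) and SD (-0.64). CDKN1A, the cell cycle inhibitor p21, fell in WT (-0.34, adjusted p = 0.000217). Of 6 BMP response genes tested, RUNX2, a transcription factor of bone formation, was called, rising in WT (0.85), SA (0.98) and SD (1.28), from 7.003 to 8.31 CPM in V to 13.2 to 21.4 CPM in the AHR libraries.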

How the data were processed

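RNA-seq of the 4 A549 lines was analysed from the deposited expected counts of 60623 genes in 12 libraries. Per the labels and the methods of the study, trimming was by Trimmomatic (v0.39) and mapping to the transcripts of GRCh38 by RSEM, and the authors deposited RSEM's expected count per gene, neither normalized nor filtered. RSEM divides reads shared by several genes, and 3.24% to 3.61% of a library's values were not whole, which touched 4 members (TGFB2, BMPR1A, BMP8B and SMAD4). Strand use and the annotation release are not given in the sources used here. A second deposited table of the authors' own fold changes, p-values and q-values was not used.

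Rounded counts were tested with edgeR 4.0.16 (R 4.3.3). For each comparison the fit used the 6 libraries of both lines and all genes kept by filterByExpr (minimum count 10, minimum total count 15), with TMM normalization (factors 0.993 to 1.005), the two-sided quasi-likelihood test and Benjamini-Hochberg adjustment over all genes tested, and an adjusted p under 0.05 was called. The study names edgeR but not its test or filter. Standard errors were derived from the F statistics, and intervals are nominal 95% intervals from the normal distribution. They make no allowance for the few libraries and can be narrower than 95% intervals from the test itself. CPM used TMM-scaled library sizes, TPM used merged exons of GENCODE 44, and error bars give the SD of the 3 libraries of a line or the SE of a log2 fold change. Library totals were 7844045 to 11765576 expected counts, and no library was a copy of another.

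All 48 members were to be described by role, with every library's value for those called in any pair. From the further pathway lists at most 3 called genes per list and comparison were named, by smallest adjusted p. The members and lists were chosen with earlier results of these data known. Alternatives comprised no filter beyond 1 count, DESeq2 size factors, the DESeq2 1.42.0 test, a joint fit of all 12 libraries, a block for the replicate number, and omission of each library in turn. The procedure was tested on simulated data, with larger changes than most called here and only in genes above a count limit. That test does not cover small changes or low counts. Figures were drawn with matplotlib 3.10.9.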

Additional observations from a re-analysis of the deposited data

How the results depend on the processing

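None of the 231 values of called members under the alternatives turned direction, 181 kept the call and 50 lost it, and 8 of the 21 calls held throughout. Those 8 were TGFBR2 and INHBB in the 3 AHR lines against V, SMAD6 in WT against V and BMPR2 in SD against V. With every gene of at least 1 count tested, 2 members were called for SD against WT and 1 for SD against SA, INHBB being the addition in both. DESeq2 called 1 member (TGIF1) in WT against SA, beside 18 of all 14942 genes tested. With the replicate block the call count was 2 for SD against WT and 1 for SD against SA, again through INHBB, and 4 in WT against V, 11 in SA against V, 4 in SD against V and 0 in WT against SA. Calls over all genes moved as well. For SD against WT they went from 105 to 251 without the filter and 245 with the block. For SD against SA they went from 33 to 150 and 165. With the block they went from 774 to 507 of 14772 genes tested in WT against V. In SA against V the change was from 1069 to 1346 of 14913, in SD against V from 806 to 664 of 14890. In WT against SA it was from 12 to 24 of 14942. The labels give each line replicates 1 to 3, but the deviations of same-numbered libraries from their line means correlated by only -0.038 to 0.106 across genes, so the numbers were not taken as pairs. In the 3 pairs among the AHR lines each of the 6 libraries correlated best with its own number, a hint from the data and not from the design.

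With 1 library left out, the number of called members ranged from 0 to 1 in SD against WT, 3 to 6 in WT against V, 4 to 11 in SA against V and 3 to 5 in SD against V, and it was 0 throughout in SD against SA and WT against SA. Calls over all genes ranged from 45 to 136 in SD against WT, 440 to 720 in WT against V and 620 to 1194 in SA against V. They ranged from 502 to 856 in SD against V, 11 to 56 in SD against SA and 2 to 25 in WT against SA. The lowest member count in SA against V came without V replicate 2, and the SD against WT call was lost without WT replicate 1. Leaving a library out leaves 2 in a line and so reduces the power of the test. Depth limits the low members: 5 members had 0 to 11 counts per library and did not pass the filter on low counts, and BMP6, at 1.45 to 4.63 CPM, had an SE of 0.32 in SA against V.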
